A study of Homo sapiens with 12 samples.

Results

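NSE4A overexpression was examined in HCT116, an established line of human colorectal cancer cells, by pooling libraries over drug treatment. The 4 libraries of NSE4A-flag transfected cells (NSE4 cells) were set against the 4 libraries of control cells (GFP cells), with doxorubicin as an additive term. These are 8 of the 12 libraries of the series, chosen by plasmid and not by any measured value. The other 4 came from SMC5-flag transfected cells (SMC5 cells) and served as a second reference. NSE4 cells given PBS, NSE4 cells given doxorubicin, GFP cells given PBS and GFP cells given doxorubicin had 2 libraries each.

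GFP cells are labelled WT, and the labels name no alteration of NSE4 or SMC5 cells besides the overexpressed protein. The sample titles call the control GFP, while the design text names an empty vector, so what the control plasmid expressed is not settled here. The promoter that drives the plasmids is not stated there. One day after transfection each population was split, and the portions received PBS or 1000 nM doxorubicin for 24 h. NSE4 cells with and without drug may therefore stem from the same transfection. No label states separate cultures for the libraries of a group, so the p-values reflect the spread among these libraries alone, which may be technical.

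SMC5/6 is an ATPase complex shaped like a ring, related to cohesin and condensin, and is needed to repair DNA and to segregate chromosomes. SMC5 and SMC6 form its long arms. NSE4A, encoded by NSMCE4A, is its kleisin and bridges the ATPase heads. NSE1 and NSE3 bind the kleisin, and NSE2 is a SUMO ligase on the SMC5 arm. Doxorubicin is an anthracycline that traps topoisomerase II on DNA. The stated question was how the complex restrains growth and favours death of drug-treated cells; the comparison here asks which transcripts differ with added NSE4A whether or not the drug is present.

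Values are FPKM, fragments scaled to transcript length and to library size, as deposited, and tests were run on log2(FPKM + 1). A locus was kept if it reached 1 FPKM in at least 2 of the 8 libraries, which left 15399 of 57908 loci. A locus is said to be called, or to have risen or fallen, where limma's p-value adjusted over all loci tested was below 0.05. Libraries had 23635 to 26117 loci above 0 in NSE4 and GFP cells. Depth, read from the steps between low values, was very roughly 13.5 to 21.2 M (1e6) fragments over all 12 libraries. Of 6 colon epithelial markers with a locus of their own, each reached 1 FPKM in some library, VIL1 lowest at 0.00654 to 1.65 FPKM in NSE4 cells and 0.0531 to 2.43 FPKM in GFP cells, and their summed level was 2043 to 2355 FPKM in NSE4 cells and 1973 to 2192 FPKM in GFP cells. EPCAM, an epithelial adhesion protein, ran from 127 to 146 FPKM in NSE4 cells and from 124 to 136 FPKM in GFP cells. The 4 blood markers together reached at most 0.638 FPKM in an NSE4 library and at most 0.414 FPKM in a GFP library. For the 3 liver markers these values were 1.063 and 0.7888 FPKM, and for the 3 neural markers 1.968 and 1.931 FPKM. The 3 mesenchymal markers were present, with sums of 20.13 to 30.03 FPKM in NSE4 cells and 20.55 to 31.89 FPKM in GFP cells. Among them COL1A1 ran from 15.6 to 24.69 FPKM in NSE4 cells and from 16.11 to 26.96 FPKM in GFP cells.

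NSMCE4A, the targeted gene, was the largest change among protein-coding loci and the sole protein-coding locus called; apart from it 3 non-coding or unannotated loci were called, all higher in NSE4 cells. NSMCE4A stood at 4069 and 4186 FPKM in NSE4 cells with PBS and at 5283 and 6287 FPKM in NSE4 cells with doxorubicin, against 68.7 and 74.8 FPKM in GFP cells with PBS and 85.7 and 89.4 FPKM in GFP cells with doxorubicin. Each NSE4 library was far above every GFP library. The group averages were 4128 ± 82.1 FPKM in NSE4 cells and 71.8 ± 4.31 FPKM in GFP cells with PBS, and 5785 ± 710 FPKM in NSE4 cells and 87.5 ± 2.60 FPKM in GFP cells with doxorubicin (SD, n = 2 in each group). NSE4 cells thus had 57.5 times the GFP level with PBS and 66.1 times with doxorubicin. The pooled difference was 5.93 on the log2 scale (SE 0.07, 95% interval 5.76 to 6.10, limma adjusted p = 4.38e-09). NSMCE4A made up 0.307 to 0.573% of the summed FPKM in NSE4 libraries and 0.00656 to 0.00923% in GFP libraries. These values sum plasmid and chromosomal transcripts, which cannot be told apart, and more transfected cells cannot be told apart from more RNA per transfected cell.

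The effect on NSMCE4A did not detectably depend on the drug. The difference was 5.83 with PBS (limma adjusted p = 8.48e-07) and 6.03 with doxorubicin (limma adjusted p = 6.62e-07), and the interaction was 0.20 (SE 0.15, limma adjusted p = 1.00). SMC5 cells, which did not receive this plasmid, had 43.1 and 32.6 FPKM with PBS and 37.9 and 37.2 FPKM with doxorubicin. Those levels lay below the GFP libraries as well as below the NSE4 libraries.

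The other 9 genes of the SMC5/6 complex and its loaders were all measured, and none of them was called. SMC6, the partner arm of SMC5, had 9.94, 9.64, 8.99 and 10.8 FPKM in NSE4 cells and 10.2, 9.77, 8.89 and 10.4 FPKM in GFP cells, in the order PBS then doxorubicin. Its pooled difference was 0.00 (95% interval −0.19 to 0.19), so any change of its messenger beyond about that interval was not seen. NSMCE2, the SUMO ligase, differed by 0.02 (95% interval −0.16 to 0.20). EID3, a second kleisin gene that is mainly expressed in testis, was near 1 FPKM in all libraries and differed by 0.05 (95% interval −0.38 to 0.48).

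NSMCE1, which encodes the RING-finger subunit, had 49.5 and 48.1 FPKM in NSE4 cells with PBS and 38.4 and 38.2 FPKM with doxorubicin, against 42.3 and 41.1 FPKM in GFP cells with PBS and 35.5 and 34.4 FPKM with doxorubicin. The groups did not overlap within either treatment, yet the difference of 0.18 (SE 0.06) had an unadjusted p of 0.0144 and a limma adjusted p of 1.00. NSMCE3, the MAGE-family subunit that binds the kleisin, was lower in NSE4 cells within each treatment, at 5.93, 5.39, 8.07 and 7.79 FPKM in NSE4 cells and 6.03, 5.95, 8.57 and 8.69 FPKM in GFP cells. Its difference was −0.09 with an unadjusted p of 0.236. SMC5 varied between libraries of 1 group, with 10.3, 19.0, 8.63 and 34.4 FPKM in NSE4 cells and 33.5, 8.76, 18.6 and 7.02 FPKM in GFP cells. The interval of its difference ran from −1.12 to 1.39, so even a doubling would have gone unnoticed. The loader genes SLF1, SLF2 and SIMC1 differed by 0.04, 0.04 and −0.05.

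**Figure D1:**
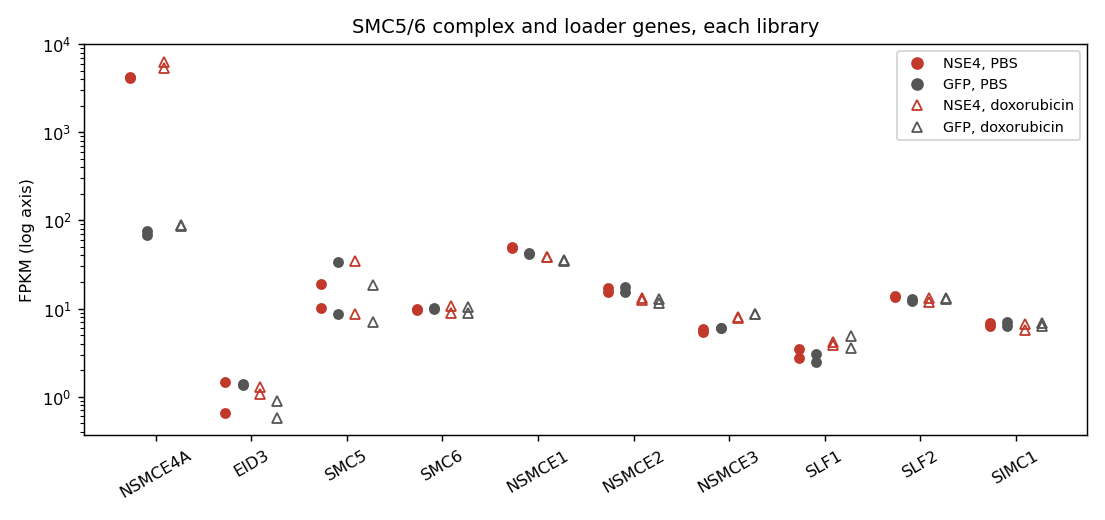
FPKM (log axis) of the 10 SMC5/6 complex and loader genes in each of the 8 libraries; red symbols are NSE4 cells, grey symbols GFP cells, filled circles PBS and open triangles doxorubicin. NSMCE4A is at 4069 to 6287 FPKM in NSE4 cells and 68.7 to 89.4 FPKM in GFP cells, and SMC5 spreads widely within groups.

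Of the 15399 loci tested, 4 were called in the pooled comparison, 0.026% of them, and all 4 were higher in NSE4 cells in both treatments with no overlap of libraries. They were NSMCE4A, AC010761.6, AC110792.4 and AF228730.6. The last 3 reached 1 FPKM in NSE4 libraries only and so passed the filter through the group where they are high. Of all loci tested 172 did so through NSE4 libraries only and 174 through GFP libraries only, and such loci had to differ, so the 3 calls are given as a description of these libraries. At an unadjusted p below 0.05, 307 loci were higher and 192 lower in NSE4 cells, 3.24% of those tested. At that threshold the share was 1.99% on the high side and 1.25% on the low side.

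AC010761.6 is annotated in GENCODE 29 as a 2-exon antisense transcript of 197 bases on chromosome 17 that lies opposite TLCD1 and inside the span of NEK8. It had 226 and 51.3 FPKM in NSE4 cells with PBS and 53.7 and 43.8 FPKM with doxorubicin, and was listed at 0 in all GFP and all SMC5 libraries. It was called in the pooled comparison (limma adjusted p = 0.00249), and because the GFP level is listed at 0 no fold is given. TLCD1, on the other strand, had 12.4, 14.8, 64.9 and 71.9 FPKM in NSE4 cells and 12.5, 13.1, 66.9 and 84.1 FPKM in GFP cells, a difference of −0.03 (limma adjusted p = 1.00). No source used here says whether counting used strand, so reads of overlapping genes cannot be told apart.

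AC110792.4 is listed in the deposited table under that name and has no entry in GENCODE 29, so no type or length is given. It had 3.25 and 2.29 FPKM in NSE4 cells with PBS and 3.09 and 2.42 FPKM with doxorubicin, and was listed at 0 in every GFP and SMC5 library. It was called in the pooled comparison (limma adjusted p = 0.00271), but not when libraries of the same plasmid and replicate number were averaged over treatments (limma adjusted p = 0.0822). AF228730.6, an unprocessed pseudogene of 221 bases, had 29.1 and 19.7 FPKM in NSE4 cells with PBS and 22.2 and 6.85 FPKM with doxorubicin, against 0.950 and 0.958 FPKM in GFP cells with PBS and 0.379 and 0.487 FPKM with doxorubicin. SMC5 cells had 0.647 to 1.10 FPKM. Its pooled difference was 3.45 (SE 0.31, limma adjusted p = 0.00963), and no NSE4 library came near a GFP library. Without the second NSE4 library with PBS its limma adjusted p was 0.0642, without the second GFP library with PBS 0.0602, and without the first GFP library with doxorubicin 0.0542. The call was also lost when libraries of the same plasmid and replicate number were averaged (limma adjusted p = 0.089) and with every locus above 0 in at least 2 libraries tested (0.0611). As a pseudogene it may share reads with near-identical copies, so its level is uncertain.

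Short transcripts made up most of the calls. Over the pooled, PBS, doxorubicin and interaction comparisons, 17 loci were called at least once. Of the 15 with an annotated length, 11 were shorter than 300 bases, against 237 of the 13317 loci tested that have one. Among the 17, 12 were listed at 0 in at least 1 of the 8 libraries, against 753 of all 15399 loci. When only transcripts of at least 300 bases were tested, an alternative chosen after seeing the data, NSMCE4A was the sole locus called in the pooled comparison. AC010761.6 and AF228730.6, which are shorter, and AC110792.4, which has no annotated length, were not tested there. Their absence was thus fixed in advance and says nothing about those calls. FPKM of a transcript shorter than a sequenced fragment depends strongly on the length model, and its part in these calls was not tested.

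**Figure D2:**
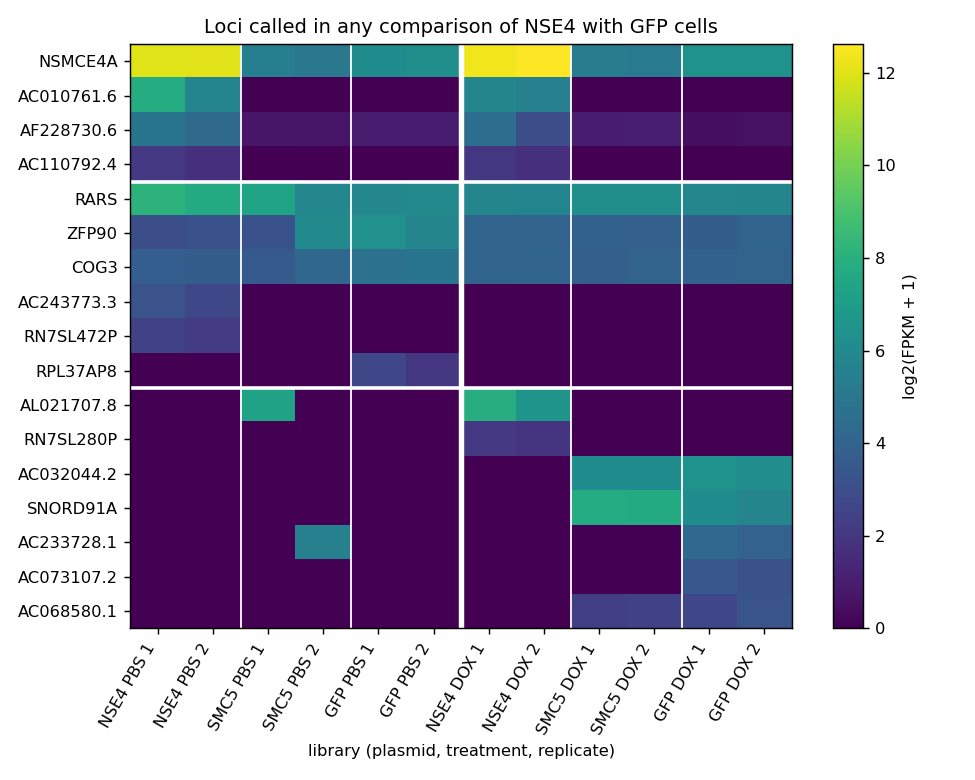
log2(FPKM + 1) of the 17 loci called in any comparison of NSE4 with GFP cells, in all 12 libraries (columns: plasmid, treatment, replicate). The top 4 rows, called over both treatments, are high in all NSE4 libraries. Of the rows below them, the middle 6 were called within PBS and not within doxorubicin, and the lower 7 the reverse. These lower and middle rows include the 8 loci called in the interaction.

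For most loci the pooled comparison bounded the effect closely on the log2(FPKM + 1) scale. The median SE of a log2 difference was 0.11, and the 95% interval lay within 2-fold either way for 14553 loci (94.5%) and within 1.5-fold for 12914 loci (83.9%). Here and below, such bounds are folds of FPKM + 1. At loci of low FPKM they allow a larger fold of the level itself. The differences with and without drug had the same sign at 7952 loci (51.6%). Across the 15398 loci other than NSMCE4A the differences in the 2 treatments had a Pearson r of 0.02, given as a description across genes, which are not independent replicates. Both NSE4 libraries lay outside both GFP libraries, in the same direction in both treatments, at 349 loci on the high side (2.27%) and 239 on the low side (1.55%).

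**Figure D3:**
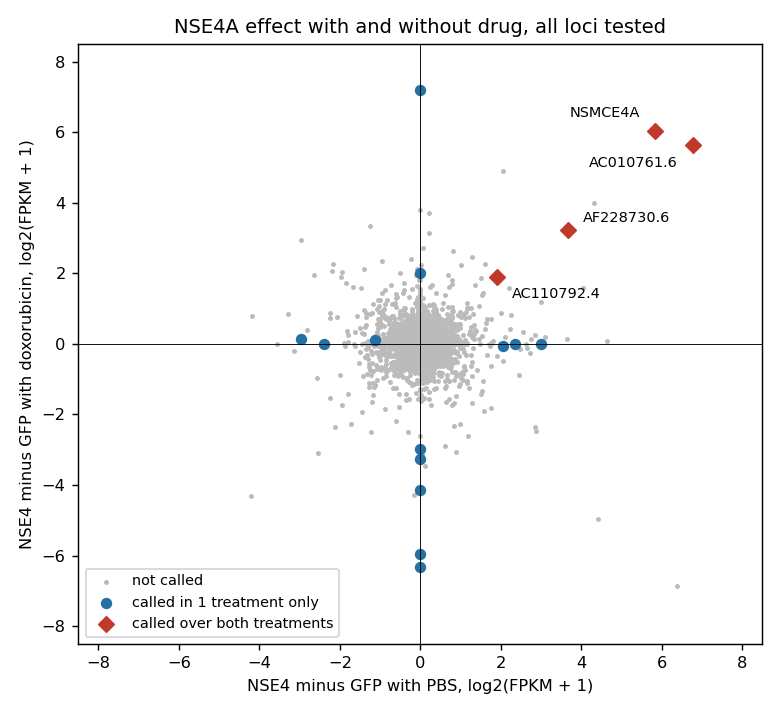
Difference of NSE4 from GFP cells on the log2(FPKM + 1) scale for each of the 15399 loci, with PBS (horizontal) and with doxorubicin (vertical). The 4 loci called over both treatments lie on the upper right diagonal, those called in 1 treatment lie along an axis, and the cloud of other loci has no slope (r = 0.02).

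With PBS alone, 9 loci were called in NSE4 against GFP cells, 0.0584% of those tested, 6 higher (0.039%) and 3 lower (0.0195%). NSMCE4A, AC010761.6 and AC110792.4 were among them. RARS, which encodes cytosolic arginyl-tRNA synthetase, had 282 and 210 FPKM in NSE4 cells and 56.6 and 60.1 FPKM in GFP cells with PBS (limma adjusted p = 0.00685). With doxorubicin it had 52.7 and 51.3 FPKM in NSE4 cells and 55.9 and 53.1 FPKM in GFP cells. The high level was thus seen in the NSE4 libraries with PBS, but also in 1 SMC5 library with PBS, at 166 FPKM, while the other had 57.2 FPKM. Its PBS call was lost without the first GFP library with PBS (limma adjusted p = 0.0678), without the second (0.0634) and with the SMC5 samples in the same fit, 11 samples in all (0.663).

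ZFP90, a zinc-finger repressor gene, ran the other way. It had 7.11 and 7.98 FPKM in NSE4 cells and 82.2 and 52.9 FPKM in GFP cells with PBS (limma adjusted p = 0.00685). With doxorubicin it had 15.5 and 15.4 FPKM in NSE4 cells and 12.1 and 15.8 FPKM in GFP cells. The GFP libraries with PBS thus stood apart from the other NSE4 and GFP libraries. The SMC5 libraries with PBS disagreed again, with 8.01 and 65.5 FPKM, and with the SMC5 samples in the same fit the PBS call was lost (limma adjusted p = 0.979). COG3, a subunit of the Golgi tethering complex, had 12.5 and 12.01 FPKM in NSE4 cells and 26.4 and 29.4 FPKM in GFP cells with PBS (limma adjusted p = 0.0253), a call lost under the omission of each of the 8 libraries. The remaining loci called with PBS were AC243773.3 (8.31 and 5.74 FPKM), RN7SL472P, a 7SL RNA pseudogene (4.52 and 3.67 FPKM), both listed at 0 in GFP cells, and RPL37AP8, a ribosomal protein pseudogene listed at 0 in NSE4 cells and at 5.52 and 3.18 FPKM in GFP cells. All 3 were listed at 0 with doxorubicin in NSE4 and GFP cells, and so passed the filter through 1 group. The RPL37AP8 call was lost under 13 of 16 alternatives, with limma adjusted p up to 0.518. RN7SL472P lost its call under 5 of 16, among them each GFP library with PBS left out (limma adjusted p = 0.106 and 0.127), and AC243773.3 under 3 of 14, among them the same omissions (0.0678 and 0.0634).

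With doxorubicin, 10 loci were called, 0.0649% of those tested, 5 higher (0.0325%) and 5 lower (0.0325%). NSMCE4A was the only one of them that codes for protein, and 8 of the 9 with a length were shorter than 300 bases. The 5 lower loci were listed at 0 in both NSE4 libraries and in all NSE4 and GFP libraries with PBS. They passed the filter only through the GFP libraries with doxorubicin, where they are high, so their values are a description. SNORD91A, a small nucleolar RNA gene, had 69.2 and 53.3 FPKM in GFP cells, and AC032044.2 had 89.1 and 70.6 FPKM. AC233728.1 had 18.7 and 14.7 FPKM in GFP cells, AC073107.2 had 9.64 and 7.75 FPKM, and AC068580.1 had 5.45 and 8.77 FPKM. SNORD91A stood at 217 and 211 FPKM in SMC5 cells with doxorubicin and was listed at 0 in all 6 PBS libraries. In SMC5 cells with doxorubicin AC032044.2 had 68.3 and 69.6 FPKM and AC068580.1 had 3.99 and 4.68 FPKM. AC233728.1 and AC073107.2 were listed at 0 there, but AC233728.1 had 44.0 FPKM in 1 SMC5 library with PBS. AL021707.8, a sense-intronic transcript of 183 bases, had 234 and 91.4 FPKM in NSE4 cells and was listed at 0 in GFP cells. It had 153 FPKM in 1 SMC5 library with PBS and was listed at 0 in the other 3. RN7SL280P, a 7SL RNA pseudogene, had 3.24 and 2.87 FPKM in NSE4 cells and was listed at 0 in GFP and SMC5 cells. Of the 8 NSE4 and GFP libraries, only the NSE4 libraries with doxorubicin had AL021707.8 or RN7SL280P above 0. Both thus passed the filter through the group where they are high, and their values are a description too. The RN7SL280P call was lost under 9 of 16 alternatives (limma adjusted p up to 0.791). AC068580.1 lost its call under 3 of 16, among them each NSE4 library with doxorubicin left out (limma adjusted p = 0.0788 and 0.0744). AL021707.8 and AC233728.1 lost theirs with the SMC5 samples in the same fit (limma adjusted p = 1.00 for each), and AC073107.2 with a pseudocount of 0.1 (0.113). AC032044.2 and SNORD91A kept theirs under all 16 alternatives run on them. Leaving out either GFP library with doxorubicin was not among these, since both loci then failed the filter. Likewise, no locus that reached 1 FPKM in only 2 of the 8 libraries could be tested without either of them. In all, 3 loci were called in both treatments, NSMCE4A, AC010761.6 and AC110792.4, and all 3 were also called in the pooled comparison. Only NSMCE4A held within both treatments under each alternative run. AC110792.4, near the threshold in each (limma adjusted p = 0.0478 with PBS and 0.0431 with doxorubicin), lost its PBS call under 14 of 16 alternatives and its doxorubicin call under 13 of 16, and each omission of 1 of the 8 libraries ended both. AC010761.6 lost its PBS call under 3 of 18 alternatives, among them each GFP library with PBS left out (limma adjusted p = 0.0954 and 0.113). It lost its doxorubicin call under 9 of 18, among them each NSE4 or GFP library with doxorubicin left out (limma adjusted p = 0.157 to 0.253) and each GFP library with PBS left out (0.0696 and 0.0678).

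The NSE4A effect differed with drug at 8 loci, 0.052% of those tested, by a test of the interaction itself, with 2 interactions above 0 (0.013%) and 6 below 0 (0.039%). RARS and ZFP90 were the only protein-coding genes among them, with interactions of −2.11 (SE 0.20) and 3.12 (SE 0.30), each at a limma adjusted p of 0.0247. Both calls were lost without either NSE4 library with doxorubicin (limma adjusted p = 0.166 and 0.168), without either GFP library with doxorubicin (0.0725 to 0.142) and with the SMC5 samples in the same fit (1.00). RARS also lost it without either GFP library with PBS (limma adjusted p = 0.146 and 0.135), and ZFP90 without either NSE4 library with PBS (0.0733 and 0.0807). The other 6 were each listed at 0 in 6 of the 8 libraries and passed the filter through 1 group, so their interactions are a description. With replicate numbers as a block 4 interactions were called, and RARS and ZFP90 were not among them (limma adjusted p = 0.057 and 0.113).

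Lists of genes with known roles were then followed for members shifted the same way in both treatments. The 27 lists held 475 distinct genes, of which 379 passed the filter on low values under a locus of their own. NSMCE4A was the only member called in any comparison with GFP cells. Of the 379, 18 had an unadjusted p below 0.05 and 22 were separated in both treatments, against 3.24% and 3.82% of all loci (588 of them separated). The median of all loci was 0.01, and list medians ran from −0.07 to 0.18. Differences above 0 were found for 235 of the 379, and for 8267 of all 15399 loci (53.7%). Counts of members above 0 below are given as a description, since genes are not independent replicates.

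Interferon-stimulated genes, which restrict viruses, stood highest among the larger lists together with immediate early genes. Of 30 listed, 23 were tested, none was called, 21 were above 0 and the median difference was 0.17 (0.21 with PBS and 0.18 with doxorubicin). Leaving out 1 library at a time moved that median between 0.13 and 0.23. Unadjusted p-values were below 0.05 for 7 of them, all on the high side, where all loci gave 1.99%. IFIT1, which binds viral RNA, had 24.8 and 26.6 FPKM in NSE4 cells with PBS and 20.7 and 23.5 FPKM with doxorubicin, against 20.3 and 19.4 FPKM in GFP cells with PBS and 16.1 and 19.3 FPKM with doxorubicin. The groups did not overlap within either treatment, and the difference was 0.33 (95% interval 0.15 to 0.52, unadjusted p 0.00317, limma adjusted p = 1.00). IFI6, a mitochondrial interferon-induced protein, differed by 0.27, and DDX58, the RNA sensor RIG-I, by 0.24.

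IFNL1, a type III interferon, had 3.07 and 3.49 FPKM in NSE4 cells with PBS and 7.78 and 5.95 FPKM with doxorubicin, against 1.17 and 1.36 FPKM in GFP cells with PBS and 4.81 and 4.38 FPKM with doxorubicin. All NSE4 libraries were above the GFP libraries of their treatment, and the difference of 0.70 (SE 0.13) had an unadjusted p of 5.46e-04 and a limma adjusted p of 0.776. In SMC5 cells with PBS, IFIT1 had 29.03 and 24.6 FPKM and IFNL1 had 2.52 and 3.72 FPKM. The median difference of NSE4 from SMC5 cells over the interferon list was −0.04 with no call. The comparisons of NSE4 and SMC5 cells with GFP cells share the GFP libraries. The intervals of all 23 members lay within 2-fold either way.

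**Figure D4:**
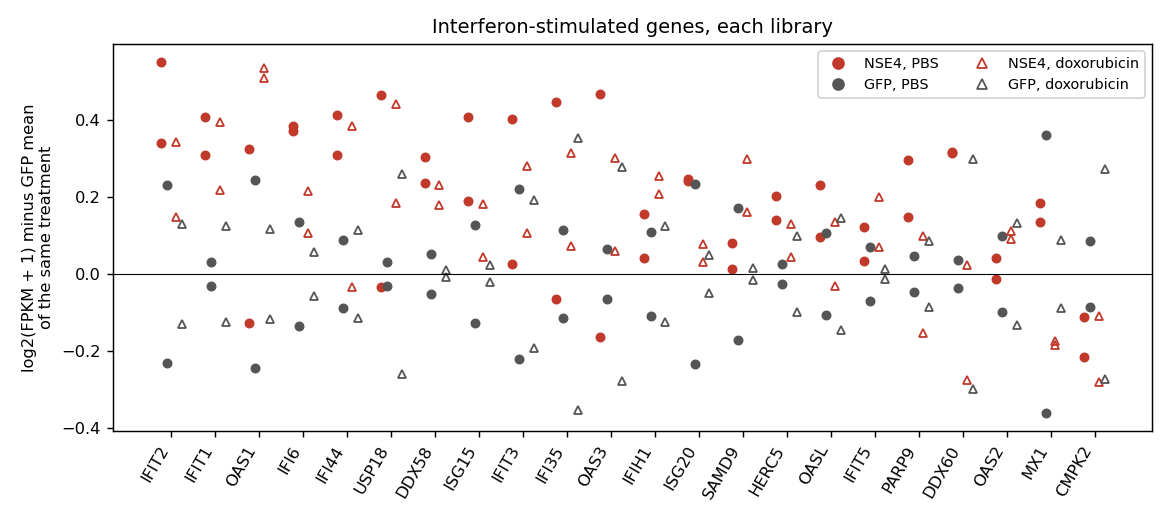
Level of 22 of the interferon-stimulated genes tested on the log2(FPKM + 1) scale in each library, minus the GFP mean of the same treatment; red symbols are NSE4 cells, grey symbols GFP cells, filled circles PBS and open triangles doxorubicin. Genes are ordered by pooled difference, from IFIT2 (0.35) to CMPK2 (−0.18), and no gene shown passed the test.

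Immediate early genes, which serum and stress switch on within minutes, had a median of 0.18, and all 18 tested lay above 0, with no call and no unadjusted p below 0.05. Their median was 0.06 without the second NSE4 library with PBS and 0.29 without the first. EGR1 had 179, 279, 129 and 127 FPKM in NSE4 cells and 160, 214, 110 and 85.7 FPKM in GFP cells. FOS had 183, 367, 43.9 and 59.0 FPKM in NSE4 cells and 140, 266, 40.0 and 30.2 FPKM in GFP cells. In both genes the libraries of 1 group given PBS differed by more than the group means did.

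Genes of the p53 pathway, the main transcriptional response to DNA damage, were close to equal. Of 28 tested, 24 lay above 0, the median was 0.07, none was called, and every interval lay within 1.5-fold. CDKN1A, the cell-cycle inhibitor p21, had 337 and 345 FPKM in NSE4 cells with PBS and 1067 and 1118 FPKM with doxorubicin, against 292 and 357 FPKM in GFP cells with PBS and 906 and 1083 FPKM with doxorubicin. The ranges overlapped, and the difference was 0.11 (SE 0.08). FAS, the death receptor, differed by 0.19 (SE 0.12) and BBC3, the apoptosis activator PUMA, by 0.07 (SE 0.11). All 16 pro-apoptotic genes and all 7 anti-apoptotic genes tested had intervals within 1.5-fold, with medians of 0.02 and 0.00.

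Cell-cycle genes lay mostly slightly below 0 without any call. Of 20 G1/S and replication genes tested 2 lay above 0, with a median of −0.06, and of 19 mitotic genes 1 lay above 0, with a median of −0.07. The G1/S median was 0.09 without the first NSE4 library with PBS and −0.21 without the second, so its sign rested on a single library. MCM5, a subunit of the replicative helicase, had 12.9 FPKM in the first NSE4 library with PBS, 38.4 FPKM in the second, and 31.3 and 26.5 FPKM in GFP cells with PBS. The mean level of the G1/S list on the log2(FPKM + 1) scale was 4.002 and 4.80 in NSE4 cells and 4.55 and 4.41 in GFP cells with PBS. CENPE, a mitotic kinesin, had 4.28, 3.96, 2.45 and 3.54 FPKM in NSE4 cells and 6.27, 4.21, 7.79 and 4.22 FPKM in GFP cells, a difference of −0.52 with an unadjusted p of 0.0341 and a limma adjusted p of 1.00.

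**Figure D5:**
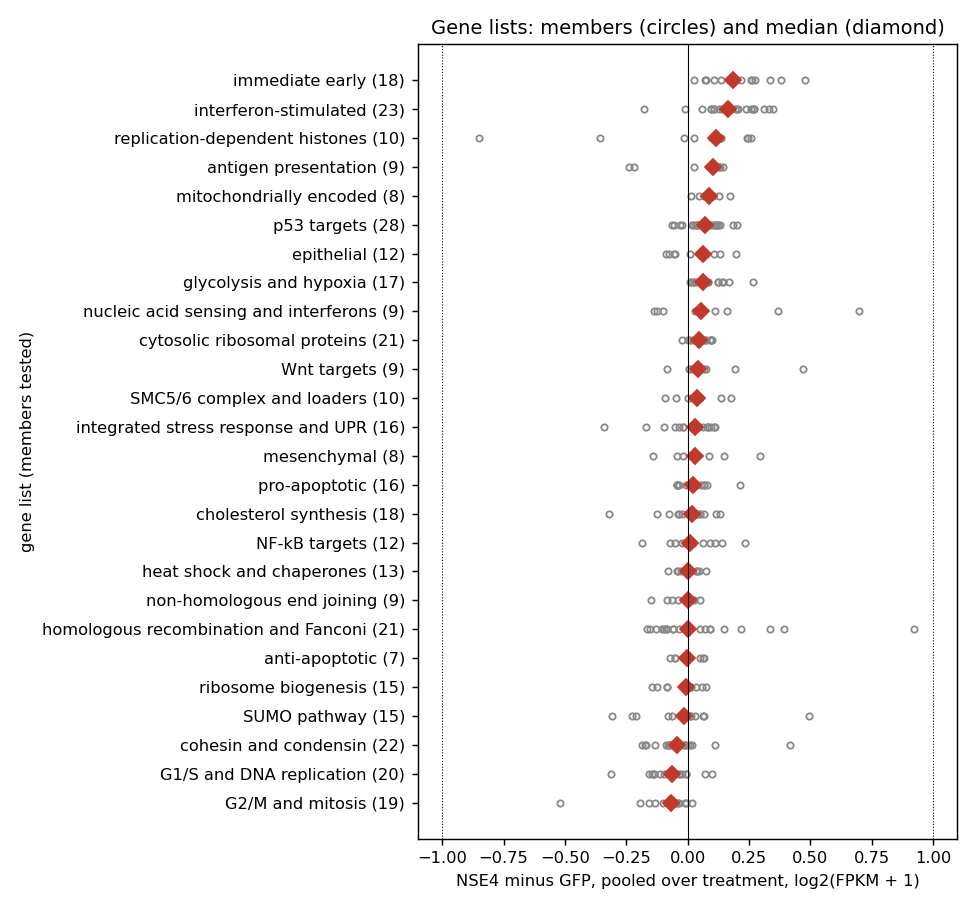
Pooled difference of NSE4 from GFP cells on the log2(FPKM + 1) scale for the members of 26 gene lists with at least 3 members tested (circles) and the median of each list (diamonds); NSMCE4A, at 5.93, is left out of its row, and dotted lines mark 2-fold. Medians run from −0.07 for mitotic genes to 0.18 for immediate early genes.

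Cohesin and condensin, the relatives of SMC5/6, had 22 genes tested and none called, with a median of −0.04. STAG2, a cohesin subunit, had 32.4, 42.5, 30.5 and 14.5 FPKM in NSE4 cells and 35.0, 34.3, 11.1 and 13.5 FPKM in GFP cells. With doxorubicin, 1 NSE4 library thus stood above the other and above the GFP libraries. SMC5 cells had 29.7 and 31.3 FPKM with PBS and a mean of 28.5 FPKM with doxorubicin, near that NSE4 library. Of 15 SUMO pathway genes none was called. PIAS4, a SUMO ligase, had 26.0 and 30.2 FPKM in NSE4 cells and 14.3 and 13.9 FPKM in GFP cells with PBS, but 12.8 and 13.8 FPKM in NSE4 cells and 11.1 and 14.9 FPKM in GFP cells with doxorubicin. Its pooled difference was 0.49 (unadjusted p 0.0269, limma adjusted p = 1.00). Replication-dependent histone genes had 10 tested and none called, with a median of 0.12. HIST1H4H, a histone H4 gene at low level, had 0.162, 0.628, 0.949 and 0.913 FPKM in NSE4 cells and 1.60, 2.35, 2.19 and 1.68 FPKM in GFP cells, a difference of −0.85 (unadjusted p 0.00131, limma adjusted p = 1.00). All NSE4 values were below all GFP values. HIST1H4H reached 1 FPKM in GFP libraries only and so passed the filter through the group where it is high. Its values are therefore a description. LSS, lanosterol synthase of the cholesterol pathway, had 58.5, 62.2, 20.1 and 27.2 FPKM in NSE4 cells and 64.5, 65.4, 32.6 and 36.3 FPKM in GFP cells, and the 18 cholesterol genes tested had a median of 0.02. ACTA2, smooth muscle actin, had 5.00, 4.98, 19.3 and 19.9 FPKM in NSE4 cells and 3.24, 3.74, 16.6 and 18.04 FPKM in GFP cells, a difference of 0.29 (limma adjusted p = 1.00). Of 17 glycolysis and hypoxia genes tested all lay above 0, with a median of 0.06 and none called. Genes of homologous recombination and of end joining had medians of 0.00 and 0.00, with 21 and 9 tested and none called. The intervals of 19 of the 21 lay within 2-fold either way, but not those of BRCA1 and FANCI. BRCA1 had 6.09 and 172 FPKM in NSE4 cells and 9.12 and 9.20 FPKM in GFP cells with PBS. Its interval ran from −1.04 to 2.89.

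Among protein-coding genes below the call, 32 with a mean of at least 3 FPKM, no 0 and an unadjusted p below 0.01 were separated in the same direction in both treatments, 22 higher and 10 lower. Of all loci 278 (1.81%) were separated at the looser unadjusted p below 0.05, with no condition on gene type, mean level or zeros. That share is therefore no background for the 32, and a share under the same conditions is not given. The 32 were picked after their values were seen and are described without a test. PHF21A, part of the LSD1 corepressor complex, had 14.1, 16.1, 15.0 and 13.1 FPKM in NSE4 cells and 9.93, 10.3, 9.81 and 8.75 FPKM in GFP cells, the smallest adjusted value of the set (limma adjusted p = 0.301). FUT2, a fucosyltransferase of secreted blood-group antigens, had 20.7, 18.5, 9.83 and 9.03 FPKM in NSE4 cells and 10.6, 11.2, 6.81 and 3.94 FPKM in GFP cells. STAT4, a cytokine-activated transcription factor, had 4.95, 6.09, 3.66 and 4.37 FPKM in NSE4 cells and 3.41, 2.46, 3.30 and 2.00 FPKM in GFP cells.

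On the low side, HIVEP2, a zinc-finger transcription factor, had 4.88, 4.78, 2.43 and 2.69 FPKM in NSE4 cells and 10.8, 16.8, 3.45 and 8.38 FPKM in GFP cells. SMC5 cells had 5.00, 4.49, 2.74 and 2.63 FPKM, so the ranges of NSE4 and SMC5 cells overlapped while the GFP libraries were higher and more scattered within each treatment. EIF4ENIF1, which carries the cap-binding factor eIF4E into the nucleus, had 6.09, 7.85, 6.80 and 9.81 FPKM in NSE4 cells and 8.10, 12.8, 14.1 and 15.7 FPKM in GFP cells, with 6.11 to 9.12 FPKM in SMC5 cells. CRY1, a repressor of the circadian clock, had 12.03, 12.3, 8.66 and 10.3 FPKM in NSE4 cells and 15.3, 13.4, 13.4 and 12.3 FPKM in GFP cells.

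A locus shared by 3 mitochondrially encoded genes, MT-ATP6, MT-ATP8 and MT-CO3, was among the most abundant. It took 33.0, 23.6, 26.7 and 24.3% of the summed FPKM in NSE4 cells and 20.9, 16.6, 20.2 and 18.8% in GFP cells, with 19.1 to 27.5% in SMC5 cells. The NSE4 and GFP libraries did not overlap, and the pooled difference in level was 0.70 (unadjusted p 0.00158, limma adjusted p = 1.00). The 8 other mitochondrial genes with a locus of their own differed by 0.02 to 0.17, none called. Its part in the other values was not tested.

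NSE4 cells were also compared directly with SMC5 cells, over 15151 loci and 7 samples. The doxorubicin-treated SMC5 columns differed by less than the sampling noise (7 loci above 0 in only 1 of them, against 4216 to 5291 in the other pairs) and were counted as 1 sample. Here 5 loci were called, 0.033% of those tested, 3 higher (0.0198%) and 2 lower (0.0132%) in NSE4 cells. The 3 higher were NSMCE4A (6.94, limma adjusted p = 3.00e-06), AC010761.6 and AC110792.4. The lower ones were SMC5, the gene on the other plasmid, at 8.63 to 34.4 FPKM in NSE4 cells and 772 to 979 FPKM in SMC5 cells (−5.75, limma adjusted p = 0.0104), and MT1DP, a metallothionein pseudogene. MT1DP was listed at 0 in NSE4 cells and stood at 332 and 441 FPKM in SMC5 cells with PBS and 50.3 FPKM with doxorubicin, but 1 of the 4 GFP libraries had 173 FPKM and the other 3 were listed at 0. AC010761.6 and AC110792.4 were listed at 0 in all SMC5 samples, as MT1DP was in NSE4 cells. Each of these 3 passed the filter through the group where it is high, so their calls are a description. AF228730.6 differed by 3.43 and did not pass this test (limma adjusted p = 0.143).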

How the data were processed

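The series has 12 RNA-seq libraries of HCT116 cells. The authors deposited 1 table of FPKM values per locus for all libraries, made with TopHat and Cufflinks per the submitters' processing notes; versions, genome build and annotation are not given in the sources used here, so no coordinates are printed. All 12 columns were matched to samples by their names. Gene types, lengths and GC content came from GENCODE 29 (GRCh38), by gene name.

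Log2(FPKM + 1) was tested with limma 3.58.1 in R 4.3.3, with a prior variance that follows intensity and Benjamini-Hochberg adjustment over all loci tested. The pooled fit had plasmid and doxorubicin as additive terms (5 residual degrees of freedom). A fit of 4 group means (4 residual degrees of freedom) gave the differences within treatments and the interaction. Because 1 is added, changes of genes at low FPKM come out too small. The scripts were tested on simulated data. Figures were made with Python 3.11.15 and matplotlib 3.10.9.

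The members and gene lists were chosen with earlier results of these data known. Genes named are NSMCE4A and other SMC5/6 genes, every locus called where fewer than 10 were called, the 6 loci of smallest p for each within-treatment contrast and the interaction, and list members called in the pooled fit. Others were named after their values were seen. Some items are not reported here. Alternatives were 2 other scalings, a pseudocount of 0.1, 2 filters, a constant prior variance, a replicate block, GC adjustment, culture means, correlated duplicates, the SMC5 samples in the same fit with the doxorubicin-treated columns averaged (11 samples), a 1.2-fold threshold, leaving out each library, and transcripts of at least 300 bases. Same-numbered libraries showed little shared deviation from their group means across loci (correlations −0.05 to 0.05), so replicate numbers were not taken as pairs. For libraries of the same plasmid and replicate number, however, the fit with correlated duplicates estimated a correlation of 0.18. The main fits treat all libraries as independent.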

Additional observations from a re-analysis of the deposited data

Results flagged for a closer look

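The effect of NSE4A differed between doxorubicin and PBS at 8 loci by limma's test of the interaction, given here as the NSE4 minus GFP difference with doxorubicin minus that with PBS, on the log2(FPKM + 1) scale. RARS had −2.11, with a high level in NSE4 cells with PBS. ZFP90 had 3.12, with a high level in GFP cells with PBS (82.2 and 52.9 FPKM, against 7.11 to 15.8 FPKM in the other NSE4 and GFP libraries). The interaction was −6.33 for AC032044.2, −5.95 for SNORD91A, −4.13 for AC233728.1, −3.27 for AC073107.2, −2.99 for AC243773.3 and 7.20 for AL021707.8. Those 6 were each listed at 0 in at least 6 of the 8 libraries, so their size rests on the pseudocount and is no fold. Without the first GFP library with doxorubicin 0 interactions were called. AC032044.2, SNORD91A, AC233728.1 and AC073107.2 then failed the filter and were not tested, while RARS, ZFP90, AC243773.3 and AL021707.8 were tested and lost their calls.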

How the results depend on the processing

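NSMCE4A was called under each alternative, with a pooled difference of 5.78 to 5.97. The cause of the moves below was not tested, except that stricter filters test fewer loci. The counts of calls are given against 4 pooled, 9 with PBS, 10 with doxorubicin, 8 interactions and 5 against SMC5 cells. With a pseudocount of 0.1 there were 5 with PBS and 5 interactions. With loci above 0 in at least 2 libraries there were 35 with doxorubicin, 21 interactions and 1 against SMC5 cells. With at least 1 FPKM in all libraries there were 1 pooled (1 in the same direction in both treatments), 4 with PBS, 1 with doxorubicin, 2 interactions and 2 against SMC5 cells, and transcripts of at least 300 bases, chosen after seeing the data, gave the same 6 counts: 1, 1, 4, 1, 2 and 2. A constant prior variance gave 22 with doxorubicin and 15 interactions. Averaging libraries of the same plasmid and replicate number over treatments (culture means) gave 8 pooled calls, 2 of them separated in both treatments. The SMC5 samples in the same fit (11 samples) gave 10 pooled and 5 interactions. With the replicate block there were 4 pooled, 6 with PBS, 7 with doxorubicin and 4 interactions, and GC adjustment with the block gave 5 with PBS. Leaving out 1 library at a time gave 3 to 7 pooled calls (3 to 7 in the same direction), 3 to 11 with PBS, 4 to 9 with doxorubicin, 0 to 14 interactions and 2 to 10 against SMC5 cells. The pooled count was 7 without the first NSE4 library with doxorubicin. Each omission also left untested the loci that reached 1 FPKM in the omitted library and only 1 other. No called result changed direction under any alternative. AC110792.4 lost its pooled call with culture means (limma adjusted p = 0.0822), and AF228730.6 with culture means (0.089) and with loci above 0 (0.0611). The median of cytosolic ribosomal protein genes was 0.05 and turned to −0.04 under quantile scaling. With 2 libraries a group, the median 95% interval of the pooled fit reached 0.26 on the log2 scale to either side.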
